A study of Homo sapiens with 11 samples.

Results

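Collagens are secreted proteins whose chains wind around one another in a triple helix, and 10 of their genes are described here in 2 lung cancer lines after knockdown of METTL3, the catalytic subunit of the complex that writes N6-methyladenosine (m6A) into mRNA. The genes are COL1A1, COL5A1, COL5A2, COL4A1, COL4A2, COL4A5, COL18A1, COL6A1, COL6A2 and COL12A1. They were chosen by gene symbol, and all 10 have a row among the 21316 genes of the A549 table and the 20915 genes of the H1299 table. A549 is a lung adenocarcinoma line and H1299 a non-small cell lung cancer line that lacks p53. RNA-seq was done on 3 libraries per line: 2 from cells that express a hairpin RNA to METTL3 (shMETTL3 libraries 1 and 2) and 1 from cells with a control hairpin to GFP (shGFP), so that all 6 libraries come from cells that carry a hairpin. The labels give neither the hairpin sequences nor the time after knockdown, and they do not say what the numbers mean or whether cultures were separate. The p-values accordingly measure only the spread between these libraries, which may be technical.

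Collagen chains are folded, hydroxylated and glycosylated in the endoplasmic reticulum, leave it in large carriers, and are trimmed and cross-linked outside the cell. Fibrillar collagens (here COL1A1, COL5A1 and COL5A2) build the fibres of connective tissue. Basement membrane collagens (here COL4A1, COL4A2, COL4A5 and COL18A1) belong to the thin sheet under epithelia and around vessels, where type IV chains form a network. Type VI (COL6A1 and COL6A2) forms beaded filaments, and type XII (COL12A1) coats fibrils. In lung, fibroblasts make most fibrillar collagen, and epithelial and endothelial cells contribute type IV.

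METTL3 stood at 231 and 232 in A549 shMETTL3 libraries 1 and 2, against 557 in shGFP, and at 123 and 100.2 in H1299 shMETTL3, against 271 in shGFP. METTL3 was thus lower in every knockdown library, by a log2 change of -1.26 (A549, SE 0.19) and -1.28 (H1299, SE 0.25), each with a limma adjusted p of 1. Values are the deposited signal per gene, scaled by 1 factor per library and not divided by gene length, so genes are not ranked against one another. The A549 libraries hold 14447379, 16504759 and 19966206 reads in genes (shMETTL3 1, shMETTL3 2, shGFP), and the totals of the H1299 values lie between 5088616 and 5166966. The ribosomal RNA gene RNA45S5 takes 20.5 to 25.4% of the H1299 totals. The epithelial keratins KRT8 and KRT18 were present in every library, while the epithelial adhesion genes EPCAM (at most 0.4) and CDH1 (1.0 to 1.1) were near 0 in H1299. Of 6 epithelial genes in A549, 5 stood above shGFP in shMETTL3 library 1 and 1 in library 2 (all genes, 52.2 and 47.7%). KRT19 stood at 1396 and 427 against 422, and EPCAM at 75.4 and 14.1 against 22.6. The summed epithelial level was 41380 and 34940 in A549 shMETTL3, against 35720 in shGFP, with no marker at 0. The part of that difference in the collagen values of library 1 was not tested.

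No collagen gene passed the test between shMETTL3 and shGFP cells in either line. limma on log2(value + 1) called 0 of the 10 genes in A549 and 0 of the 7 that reached a mean of 1 in H1299, at a Benjamini-Hochberg adjusted p under 0.05. Over all genes it also called 0% of 17454 in A549 and 0% of 16470 in H1299, where 115 and 99 genes had an unadjusted p under 0.05. Of the collagen genes, COL4A5 in A549 and COL1A1 in H1299 were the members under that unadjusted level. In A549, edgeR's quasi-likelihood test on the reads behind the values also called none of the 10. Each line's fit has 1 residual degree of freedom: a gene's own spread comes from the pair of knockdown libraries, and the single control is taken to vary as much as they do. For its SE and p-value, limma draws that spread toward a trend over all genes, so neither measures the pair alone.

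By direction alone, 4 of the 10 genes in A549 stood above shGFP in both knockdown libraries (COL1A1, COL5A1, COL5A2 and COL4A5), beside 27.2% of all genes tested. COL1A1 and COL5A2 did so in library 2 by less than the SE of their log2 changes. COL6A2 was the 1 gene below shGFP in both, beside 27.2% of all genes. The other 5 lay on opposite sides of shGFP in libraries 1 and 2, beside 45.4% of all genes. In H1299, COL1A1, COL4A5 and COL6A1 stood above shGFP in both libraries, 3 of 7 beside 30.6% of all genes, though COL4A5 in library 2 (9.4 against 9.0) and COL6A1 in library 1 (30.0 against 28.4) did so by less than the SE of their log2 changes. COL5A2 and COL12A1 stood below it in both, 2 of 7 beside 24.5%, though COL5A2 in library 1 and COL12A1 in both did so by less than the SE of their log2 changes. COL18A1 and COL6A2 lay on opposite sides, 2 of 7 beside 42.7%.

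**Figure D1:**
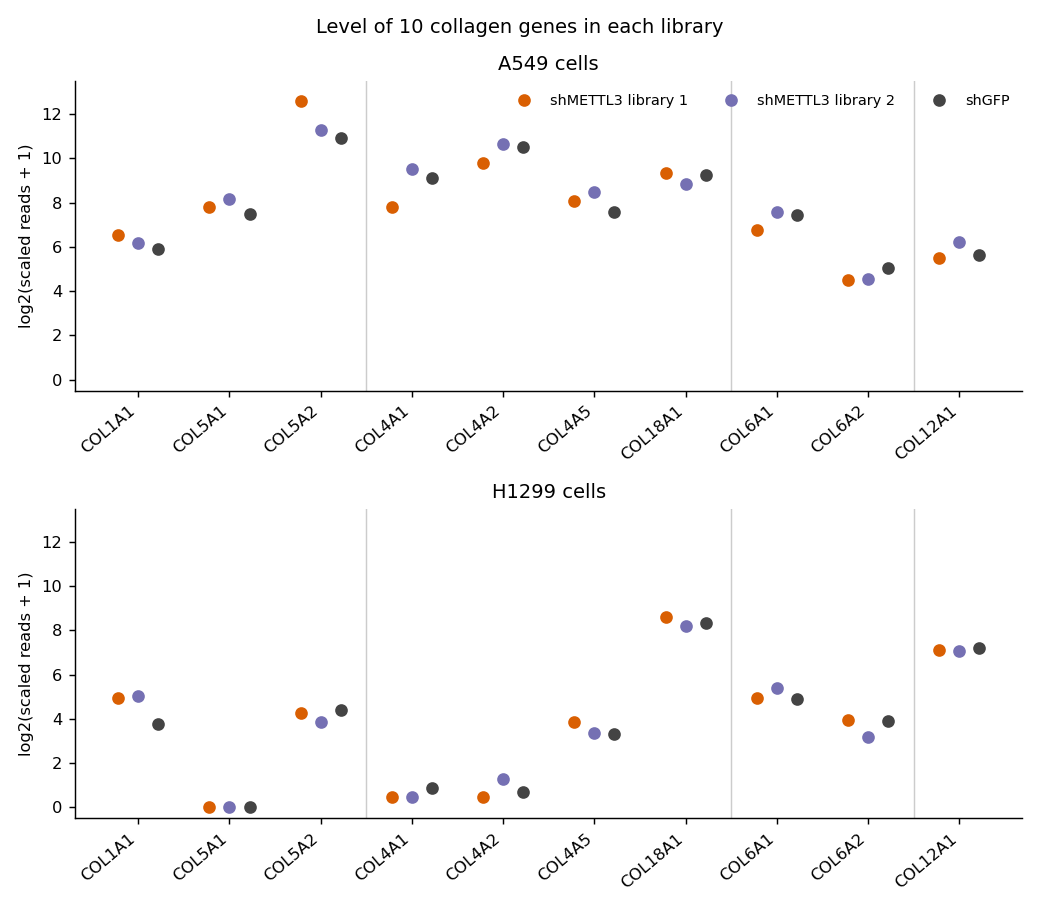
Level of each collagen gene in each of the 6 libraries (log2 of the deposited value plus 1, points by library, with A549 and H1299 in separate panels). In A549, COL5A2 (6235) and COL4A1 (224) in shMETTL3 library 1 lie furthest from the shGFP library (1971 and 548), and COL5A1 is at 0 in all 3 H1299 libraries.

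Among the fibrillar chains, COL1A1 stood above its control in all 4 knockdown libraries. It encodes the alpha 1 chain of type I collagen, the main protein of tendon, bone and skin. In A549 it stood at 91.8 and 72.2 in shMETTL3 libraries 1 and 2, against 59.7 in shGFP. In H1299 it stood at 30.0 and 32.2 in shMETTL3, against 12.5 in shGFP. The knockdown libraries of H1299 lay close together and well above their control, and those of A549 lay above theirs with a wider gap between them. On the log2 scale COL1A1 differed by 0.44 in A549 (SE 0.27) and by 1.25 in H1299 (SE 0.30), and limma's adjusted p was 1 in both. In bulk RNA, a difference in the number of cells that make a transcript and a difference in RNA per cell cannot be told apart. COL1A2, the partner chain of the common type I heterotrimer, was listed at 0 in both A549 shMETTL3 libraries, against 0.26 in shGFP, and at 0 in all 3 H1299 libraries.

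Fitted over both lines, COL1A1 had a log2 change of 0.84 (SE 0.22). It was higher in 4 of 4 knockdown libraries, in A549 library 2 by less than the SE of its log2 change in that line. Its adjusted p was 1 over 15546 genes, of which limma called 0% and 374 had an unadjusted p under 0.05. COL4A5, with 0.49 (SE 0.20; limma adjusted p = 1), was the other collagen gene with COL1A1 under that unadjusted level, also higher in 4 of 4 libraries, in H1299 library 2 by less than the SE of its log2 change in that line. The remaining 5 genes in this fit ranged between -0.42 (COL6A2, SE 0.25) and 0.34 (COL5A2, SE 0.40). The share of all genes higher in all 4 libraries was not counted. Within a line, 27.2% of all genes in A549 and 30.6% in H1299 were higher in both libraries.

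COL5A1 and COL5A2 encode the alpha 1 and alpha 2 chains of type V collagen, a minor fibrillar collagen that helps to start type I fibrils and limits their width. COL5A1 stood at 222 and 282 in A549 shMETTL3, against 177 in shGFP (log2 0.50, SE 0.24). Both knockdown libraries were above the control, library 2 more so. In H1299, COL5A1 was listed at 0 in both shMETTL3 libraries and in shGFP, so the gene has no comparison there.

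COL5A2 stood at 6235 and 2511 in A549 shMETTL3, against 1971 in shGFP. These values rest on 17458, 8036 and 7488 reads, and their 95% exact Poisson intervals (6143 to 6328, 2457 to 2567 and 1926 to 2016) do not overlap; the intervals cover counting error only. Library 1 was at 316% of the control and library 2 at 127%, so the gap between the knockdown libraries was wider than the gap between library 2 and shGFP. The log2 change of 1.01 had an SE of 0.57 (limma adjusted p = 1). In H1299 the order was the other way round, with 18.4 and 13.4 in shMETTL3 against 20 in shGFP (log2 -0.33, SE 0.35). COL3A1 and COL5A3, fibrillar chains that can share a helix or a fibril with types I and V, were low in A549. COL3A1 had 9.64 and 3.13 in shMETTL3 against 1.58 in shGFP, and COL5A3 had 4.64 and 1.25 against 1.58.

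**Figure D2:**
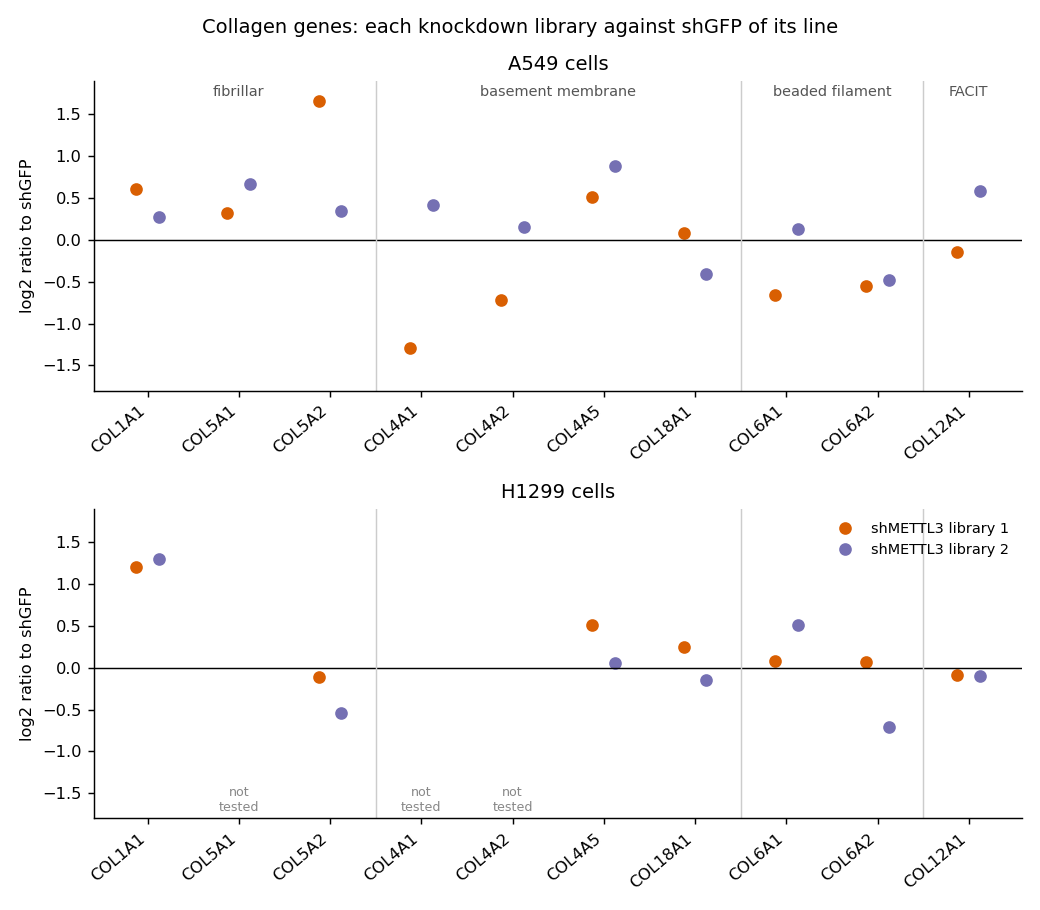
Log2 ratio (of values plus 1) of each shMETTL3 library to the shGFP library of its line for each collagen gene that was tested, ordered by collagen class, with libraries 1 and 2 as separate points and a panel for each line. COL1A1 and COL4A5 lie above 0 at all 4 points, while COL4A1 in A549 lies at -1.29 in library 1 and 0.42 in library 2.

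Type IV collagen is made from 6 genes that lie as 3 head-to-head pairs, transcribed away from each other from a short shared stretch. Human COL4A1 and COL4A2 share one pair, COL4A3 and COL4A4 another, and COL4A5 and COL4A6 the last, and the encoded chains combine in a few fixed helices. The stretches between the paired starts are printed because both genes of each pair read from them. They are from RefSeq on GRCh38.p14, plus strand, in lower case, with capitals for GGGCGG or CCAAT on either strand (CCGCCC and ATTGG on the plus strand). Of the 10 collagen genes, 7 have a window in the RefSeq promoter table used.
COL4A1 to COL4A2, all 126 bases, chr13:110307158-110307283: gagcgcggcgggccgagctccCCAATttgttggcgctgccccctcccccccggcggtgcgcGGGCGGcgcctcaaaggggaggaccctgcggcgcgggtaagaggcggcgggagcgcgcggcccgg
COL4A4 to COL4A3, all 135 bases, chr2:227164489-227164623: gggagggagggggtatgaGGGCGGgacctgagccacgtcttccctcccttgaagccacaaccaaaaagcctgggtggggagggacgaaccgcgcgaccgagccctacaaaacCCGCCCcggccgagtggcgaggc
COL4A6 to COL4A5, the 250 bases nearest COL4A5 of 379, chrX:108439588-108439837: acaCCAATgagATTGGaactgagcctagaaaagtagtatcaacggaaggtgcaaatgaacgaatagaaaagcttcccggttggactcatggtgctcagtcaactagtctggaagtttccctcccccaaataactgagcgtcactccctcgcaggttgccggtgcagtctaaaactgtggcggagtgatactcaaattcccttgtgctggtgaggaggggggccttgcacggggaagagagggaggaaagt

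The COL4A1 to COL4A2 stretch has 80.2% G and C, 20 CpG, 1 GGGCGG and 1 CCAAT. The COL4A4 to COL4A3 stretch has 68.1% G and C, 11 CpG, 2 GGGCGG and 0 CCAAT. The COL4A6 to COL4A5 stretch has 51.2% G and C, 8 CpG, 0 GGGCGG and 2 CCAAT. No 2 matches overlap in these stretches. Among 35116 RefSeq promoter windows, 34.6% hold GGGCGG and 21.1% CCAAT within 126 bases before the start, 35.5 and 22.1% within 135 bases, and 42.6 and 32.0% within 250 bases. A match describes letters and is not a bound site.

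In A549 the 2 genes of each type IV pair stood on the same side of shGFP within each knockdown library, while libraries 1 and 2 differed in side for the first 2 pairs. COL4A1, the alpha 1 chain of the common basement membrane network, stood at 224 and 733 in shMETTL3, against 548 in shGFP. COL4A2, its partner alpha 2 chain, stood at 891 and 1628 in shMETTL3, against 1467 in shGFP. Both genes were below the control in library 1, at 40.9 and 60.8% of it, and above it in library 2, at 134 and 111%. The 95% Poisson interval of COL4A1 in library 1 (207 to 243) lay below that of shGFP (525 to 572), and the interval in library 2 (703 to 763) above it. With libraries so far apart, the log2 changes were -0.43 (SE 0.72) for COL4A1 and -0.28 (SE 0.40) for COL4A2 (limma adjusted p = 1 for each). Antisense transcripts exist at this locus and at COL18A1, and since the strand setting of the counting is not given in the sources used here, their reads cannot be told apart from those of the collagen genes.

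COL4A3 and COL4A4, whose chains serve the mature basement membranes of kidney and lung, had the opposite pattern in A549. COL4A3 stood at 140 and 18.4 in shMETTL3, against 37.1 in shGFP, and COL4A4 at 297 and 77.5 in shMETTL3, against 99.5 in shGFP. Both were far above the control in library 1 and below it in library 2. The COL4A5 and COL4A6 pair was above the control in both libraries. COL4A5, the alpha 5 chain, stood at 272 and 352 in shMETTL3, against 190 in shGFP, and COL4A6, the alpha 6 chain, at 129 and 219 in shMETTL3, against 115 in shGFP. COL4A5 had a log2 change of 0.70 (SE 0.24; limma adjusted p = 1), and COL4A6 0.55 (SE 0.37).

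**Figure D3:**
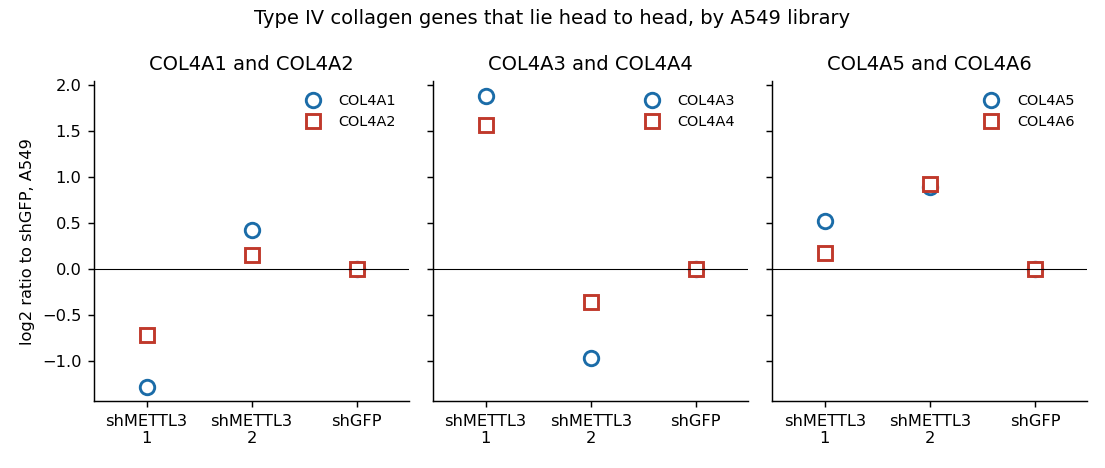
Log2 ratio to shGFP of the 6 type IV collagen genes in A549 shMETTL3 libraries 1 and 2, drawn by head-to-head pair, with shGFP at 0. In library 1 COL4A1 and COL4A2 lie at -1.29 and -0.72 and COL4A3 and COL4A4 at 1.89 and 1.57, and COL4A5 and COL4A6 are above 0 in both libraries.

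In H1299, type IV transcripts were low, and COL4A5 and COL4A4 were the 2 of the 6 genes that reached the minimum mean. COL4A1 stood at 0.4 and 0.4 in shMETTL3, against 0.8 in shGFP, and COL4A2 at 0.4 and 1.4, against 0.6. Both lie under the minimum mean of 1 and were not tested. COL4A4 stood at 2.7 and 2.8 in shMETTL3, against 4.3 in shGFP, below the control in both libraries (log2 -0.50, SE 0.37; limma adjusted p = 1). COL4A5 stood at 13.3 and 9.4 in shMETTL3, against 9.0 in shGFP (log2 0.29, SE 0.37), so library 1 was above the control and library 2 above it by a margin smaller than that error. Its pair partner COL4A6 was at 0.7 and 0.2 in shMETTL3, against 0.4 in shGFP. The tables of the lines were normalized separately, so a level in one line is set beside the other only as present or near 0.

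COL18A1 encodes type XVIII collagen, a basement membrane proteoglycan whose end fragment is endostatin. It stood at 645 and 461 in A549 shMETTL3, against 609 in shGFP, and at 384 and 291 in H1299 shMETTL3, against 323 in shGFP. In both lines library 1 was above the control and library 2 below it. Its log2 changes were -0.16 in A549 (SE 0.27) and 0.05 in H1299 (SE 0.25).

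COL6A1 and COL6A2 encode the alpha 1 and alpha 2 chains of type VI collagen, which assemble with the alpha 3 chain. COL6A1 stood at 108.9 and 189 in A549 shMETTL3, against 172 in shGFP (log2 -0.26, SE 0.38), and at 30.0 and 40.8 in H1299 shMETTL3, against 28.4 in shGFP (log2 0.29, SE 0.33). Library 1 of A549 was the 1 library below its control. COL6A2 stood at 21.4 and 22.5 in A549 shMETTL3, against 31.8 in shGFP (log2 -0.52, SE 0.30), from 60, 72 and 121 reads. COL6A2 in H1299 had 14.4 and 8.0 in shMETTL3, against 13.7 in shGFP (log2 -0.32, SE 0.43). Both A549 knockdown libraries were below the control, and the H1299 libraries lay on either side of it. COL6A3, which encodes that chain, was at 0.36 and 0.63 in A549 shMETTL3, against 0.26 in shGFP, and at 0.2 and 0 in H1299 shMETTL3, against 0 in shGFP.

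COL12A1 encodes type XII collagen, which binds the surface of type I fibrils. It stood at 43.6 and 73.1 in A549 shMETTL3, against 48.4 in shGFP (log2 0.22, SE 0.39). COL12A1 in H1299 had 136.0 and 134.4 in shMETTL3, against 144.5 in shGFP (log2 -0.10, SE 0.23). The H1299 knockdown libraries were both at 93 to 94% of the control, and those of A549 lay on either side of theirs.

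The fibrillar and basement membrane classes were set against each other by the median log2 ratio to shGFP of their members, as a description with no test, since genes are not replicates. In A549 library 1 the median was 0.61 over 3 fibrillar genes and -0.32 over 4 basement membrane genes, a difference of 0.93. The value of -0.32 describes those 4 genes only. The type IV genes COL4A3, COL4A4 and COL4A6, which are outside the class, had ratios of 1.89, 1.57 and 0.17 in library 1. Their ratios in library 2 were -0.97, -0.36 and 0.93. In library 2 the medians were 0.35 and 0.28, a difference of 0.07. The difference of 0.72 over the mean of both libraries therefore rests mostly on library 1. There the fibrillar median was the ratio of COL1A1 (0.61). The basement membrane median lay between COL4A2 (-0.72) and COL18A1 (0.08). COL5A2 (1.66) and COL4A1 (-1.29) lay further out and did not set these medians. In H1299 only 2 genes of each class were tested, COL1A1 and COL5A2 against COL4A5 and COL18A1. Their medians were 0.54 and 0.38 in library 1 and 0.38 and -0.05 in library 2, differences of 0.16 and 0.42. The fibrillar pair there held 1 gene far above the control and 1 below it, so its median lies between unlike values. The median over all genes tested was 0.02 and -0.01 in A549 libraries 1 and 2, and 0.09 and -0.04 in H1299.

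Several collagen genes differed more between the knockdown libraries than between knockdown and control, so library 2 was compared with library 1 over both lines. limma called 1.65% of 15546 genes in this comparison, and 2899 had an unadjusted p under 0.05. It called 0 of the 7 collagen genes. COL18A1 came nearest, with a log2 difference (library 2 minus library 1) of -0.44 (SE 0.11; limma adjusted p = 0.0894), and library 2 was lower in both lines, at 461 against 645 in A549 and 291 against 384 in H1299. COL6A1 had 0.61 (SE 0.19; limma adjusted p = 0.143), with library 2 higher in both lines. COL5A2 had -0.87 (SE 0.32; limma adjusted p = 0.198), with library 2 lower in both. COL12A1 (0.36), COL6A2 (-0.35), COL1A1 (-0.12) and COL4A5 (-0.04) had smaller differences. COL4A1, COL4A2 and COL5A1 were not in this fit because their H1299 values lie under the minimum mean.

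**Figure D4:**
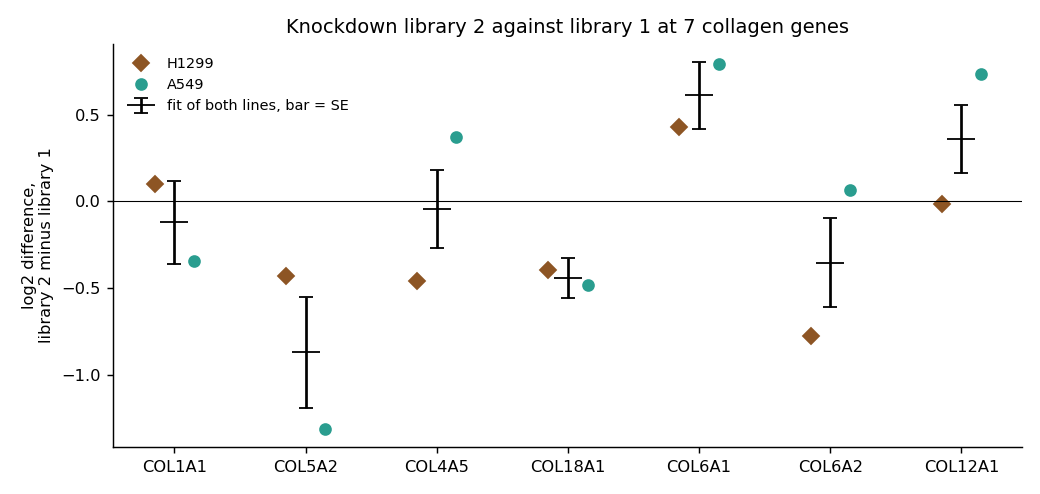
Log2 difference of shMETTL3 library 2 minus library 1 at the 7 collagen genes tested in both lines, with a point for each line and a bar for the fit of both lines with its SE. COL18A1 (-0.44) and COL5A2 (-0.87) lie below 0 and COL6A1 (0.61) above 0 in both lines.

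No collagen gene passed limma's interaction term, which tests whether the response to knockdown differed between the lines; it called 0% of 15546 genes, and 49 had an unadjusted p under 0.05. COL5A2 had the widest gap, a log2 change in H1299 minus that in A549 of -1.33 (SE 0.70; limma adjusted p = 1), which was -0.68 without A549 shMETTL3 library 1. COL1A1 had 0.81 (SE 0.40; limma adjusted p = 1), that is, a larger log2 change in H1299. The other 5 genes ranged between -0.42 for COL4A5 (SE 0.44) and 0.55 for COL6A1 (SE 0.53).

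The tables list 34 further collagen genes, of which 18 were tested in A549 and 10 in H1299, and limma called none of them between shMETTL3 and shGFP. In A549, 16 of the 18 stood above shGFP in library 1 and 11 in library 2, with median log2 ratios of 0.89 and 0.11, beside 52.2 and 47.7% of all genes tested. COL9A2 (2.14 and 0.31 in shMETTL3, against 0.79) and COL24A1 (2.5 and 0.31, against 0.79) reached the minimum mean only through library 1. They could therefore only count as above shGFP there. Other genes of the 18 were also low, such as COL3A1 and COL5A3 with 1.58 each in shGFP. In H1299, 6 of the 10 stood above shGFP in library 1 and 5 in library 2, with medians of 0.14 and -0.11, beside 61.7 and 43.3% of all genes tested. COL7A1, which forms the anchoring fibrils under epithelia, stood at 1813 and 1997 in A549 shMETTL3, against 1669 in shGFP, and at 51.8 and 61.0 in H1299 shMETTL3, against 53.5 in shGFP. COL27A1, a fibrillar collagen of cartilage, stood at 404 and 347 in A549 shMETTL3, against 308 in shGFP, and at 92.4 and 105.0 in H1299 shMETTL3, against 90.2. Both genes were above the control in both A549 libraries by modest margins. COL16A1, a fibril-associated collagen, stood at 124 and 78.4 in A549 shMETTL3, against 78.4 in shGFP, and COL21A1, of the same class, at 32.5 and 19.7, against 15.0. COL17A1, the transmembrane collagen of hemidesmosomes, stood at 83.9 and 13.1 in A549 shMETTL3, against 16.8 in shGFP, and at 86.7 and 35.8 in H1299 shMETTL3, against 54.7 in shGFP. It was above the control in library 1 and below it in library 2 of both lines, and its log2 difference of library 2 minus library 1 was -1.92 (SE 0.34; limma adjusted p = 0.0350), past the threshold. The same comparison called 4 genes of the 6 collagen pathway lists, beside 1.65% of 15546 genes. Those lists had 21, 12, 15, 11, 13 and 21 genes tested in A549, and 22, 13, 12, 11, 11 and 20 in H1299. Of the 4, SP3 is named because it passed. Library 2 was lower for ITGA1, a collagen receptor chain (-1.10; limma adjusted p = 0.0382), P3H2, a prolyl hydroxylase (-0.98; adjusted p = 0.0342), and SP3, a transcription factor (-0.62; adjusted p = 0.0463). It was higher for CBFB, the partner of RUNX factors (1.24; limma adjusted p = 0.00653). The comparison also called the epithelial keratin KRT8, lower in library 2 (-0.64; limma adjusted p = 0.0461); its part in the collagen differences was not tested.

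The genes that modify, secrete, cross-link, bind and degrade collagen were read from lists, and limma called none of their members between shMETTL3 and shGFP in either line. Of 22 genes of intracellular processing, 21 were tested in A549, where 6 stood above shGFP in both knockdown libraries, 2 below (all genes, 27.2% each way) and 13 on opposite sides (all genes, 45.4%). In H1299, 11 of 22 stood above in both, 1 below and 10 on opposite sides (all genes, 30.6, 24.5 and 42.7%). SERPINH1, the collagen chaperone HSP47, stood at 414 and 400 in A549 shMETTL3, against 336 in shGFP, and at 281 and 306 in H1299 shMETTL3, against 239 in shGFP. SEC24D, a coat protein of the carriers that export procollagen, stood at 364 and 309 in A549 shMETTL3, against 240 in shGFP, and at 154 and 133 in H1299 shMETTL3, against 111.6 in shGFP. Both genes were above the control in all 4 knockdown libraries, with log2 changes over both lines of 0.28 (SE 0.11) and 0.42 (SE 0.13) and a limma adjusted p of 1. The hydroxylases P4HA1 (65.7 and 89.7 in A549 shMETTL3, against 66.6 in shGFP) and PLOD2 (848 and 1165, against 986) lay on opposite sides of the control in A549. In H1299, P4HA1 stood above it in both libraries (48.4 and 32.2 in shMETTL3, against 30.2 in shGFP) and PLOD2 on opposite sides (88.9 and 59.6, against 63.3).

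Outside the cell, LOX, which starts collagen cross-links, stood at 7.5 and 6.56 in A549 shMETTL3, against 5.79 in shGFP, and at 16.9 and 15.8 in H1299 shMETTL3, against 9.8 in shGFP. LOX was above the control in all 4 libraries, with a log2 change over both lines of 0.46 (SE 0.22; limma adjusted p = 1). In A549 both margins were smaller than the SE of its log2 change in that line (0.24, SE 0.41). PXDN, which forms the sulfilimine bonds of the type IV network, stood at 80.7 and 132 in A549 shMETTL3, against 73.7 in shGFP, and at 606 and 591 in H1299 shMETTL3, against 481 in shGFP. TGM2, a cross-linking transglutaminase, stood at 316 and 991 in A549 shMETTL3, against 627 in shGFP, and at 20.9 and 30.0 in H1299 shMETTL3, against 47.5 in shGFP. Of 15 genes in this list, 5 of 12 tested in A549 (all genes, 27.2%) and 6 of 13 in H1299 (all genes, 30.6%) stood above the control in both libraries. In each line 2 stood below it in both (all genes, 27.2% in A549 and 24.5% in H1299).

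Among 15 partners of the basement membrane, 7 stood above shGFP in both A549 libraries and 3 below (all genes, 27.2% each way). In H1299, 3 of 12 stood above in both and 4 below (all genes, 30.6 and 24.5%). LAMA3, a chain of laminin-332, stood at 31.4 and 107 in A549 shMETTL3, against 139 in shGFP, and LAMB3, another chain of that laminin, at 225 and 140, against 112. HSPG2, the proteoglycan perlecan, stood at 1880 and 1319 in A549 shMETTL3, against 1158 in shGFP, and at 904 and 695 in H1299 shMETTL3, against 1069 in shGFP. These genes did not share one direction. NID1, another partner on this list, stood at 70.7 and 62.8 in A549 shMETTL3, against 57.9 in shGFP. In H1299 it stood at 277 and 282 in shMETTL3, against 207 in shGFP. NID1 was thus above the control in every knockdown library, in A549 library 2 by less than the SE of its log2 change. SPARC, a collagen-binding protein, stood at 80.4 and 135 in A549 shMETTL3, against 105 in shGFP.

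Of 11 collagen receptors in A549, 4 stood above shGFP in both libraries and 4 below (all genes, 27.2% each way). In H1299, 1 stood above in both, 1 below and 9 on opposite sides (all genes, 30.6, 24.5 and 42.7%). The receptor above in both was ITGA2, at 10.2 and 9.4 in shMETTL3, against 5.9 in shGFP. In A549, ITGA2 stood at 86.1 and 128 in shMETTL3, against 82.6 in shGFP, in library 1 by less than the SE of its log2 change. DDR1, a receptor tyrosine kinase for collagen, stood at 100.4 and 95.3 in A549 shMETTL3, against 65.8 in shGFP, and at 46.7 and 66.2 in H1299 shMETTL3, against 51.0 in shGFP, on opposite sides of it. Among proteases and inhibitors, CTSL, the lysosomal cathepsin L, stood at 691 and 948 in A549 shMETTL3, against 1337 in shGFP, and at 82.9 and 107.4 in H1299 shMETTL3, against 103.9 in shGFP, again on opposite sides in that line. Of 21 transcriptional regulators, TGFBR2, a receptor for transforming growth factor beta, stood at 1296 and 1266 in A549 shMETTL3, against 852 in shGFP, and at 136 and 111 in H1299 shMETTL3, against 76.1 in shGFP. TGFBR2 was above the control in all 4 libraries (log2 0.59 in A549, SE 0.19, and 0.68 in H1299, SE 0.26), and limma's adjusted p was 1 in each line.

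Beside a median log2 change of -0.0014 over all genes tested in A549, the medians were 0.03 for the 10 collagen genes, 0.03 for intracellular processing, 0.10 for extracellular processing and cross-linking, and 0.0026 for basement membrane partners. They were 0.09 for receptors, -0.02 for proteases and inhibitors, and -0.10 for regulators, of which 9 of 21 stood below shGFP in both libraries and 5 above (all genes, 27.2% each way). In H1299, beside 0.02 over all genes tested, the median was 0.05 for the 7 collagen genes, and those of the 6 lists lay between -0.08 (basement membrane partners) and 0.15 (intracellular processing).

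**Figure D5:**
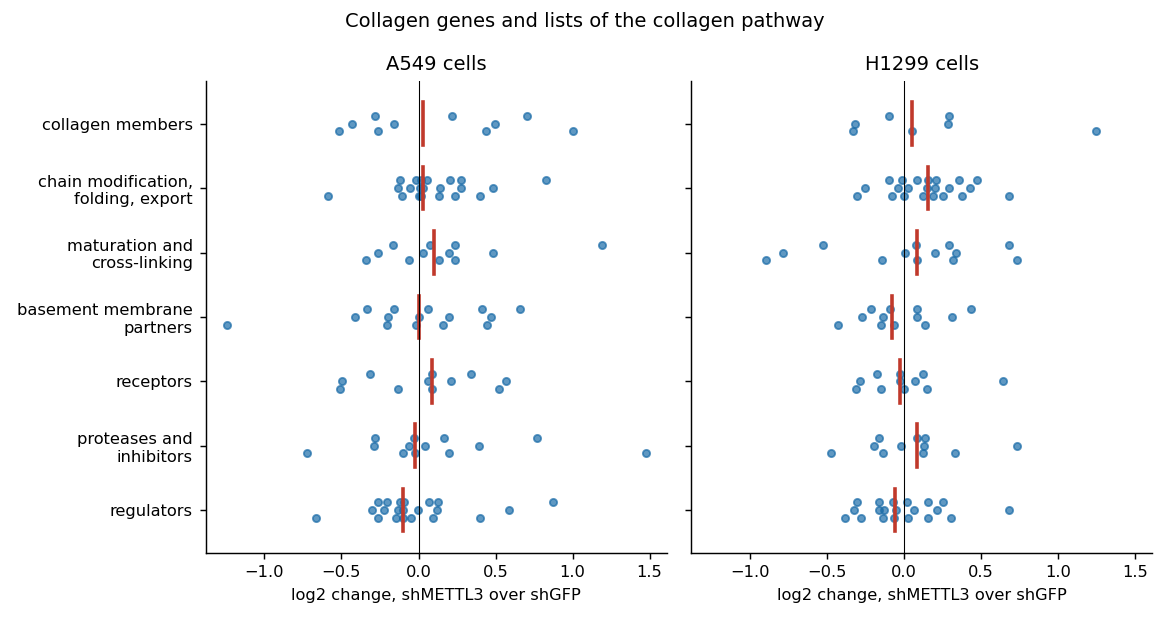
Log2 change, shMETTL3 over shGFP, of each tested gene (points) of the 10 collagen genes and of 6 lists of the collagen pathway, with the median of each list as a bar, for A549 on the left and H1299 on the right. The medians of the collagen genes lie at 0.03 in A549 and 0.05 in H1299, with COL1A1 in H1299 at 1.25 and COL5A2 in A549 at 1.01 as the highest of their points.

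Markers of fibroblasts, the main source of fibrillar collagen in lung, were few. The 11 with a row in A549 summed to 66.4 and 85.6 in shMETTL3, against 59.7 in shGFP, and to 37.9 and 30.0, against 35.8, without ACTA2. Of the 7 tested there, 4 stood above shGFP in both libraries and 3 below (all genes, 27.2% each way). THY1 was among those below (21.8 and 17.8 in shMETTL3, against 26.1 in shGFP). LUM, among those above (1.07 and 2.19, against 0), reached the minimum mean only through the knockdown libraries, so it could not fall below shGFP. COL3A1 and PDPN above, and PDGFRA and TCF21 below, were also low in shGFP (1.58, 1.32, 3.42 and 1.58). The 12 with a row in H1299 summed to 33.6 and 26.4 in shMETTL3, against 22.8 in shGFP. Without ACTA2 they summed to 5.2 and 4.4, against 5.0. Only 2 of them were tested, and both stood above shGFP in both libraries (all genes, 30.6%). COL1A2 and FAP were at 0 in both A549 knockdown libraries and near 0 in shGFP, at 0.26 each. Endothelial sums were 32.5 and 23.4 in A549 shMETTL3, against 24.5 in shGFP, and 18.4 and 14.8 in H1299 shMETTL3, against 14.4 in shGFP.

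The profiles over the 4 log2 ratios that lay nearest to those of COL1A1 and COL5A2, the members with the largest such ratios, were found by Euclidean distance among 10099 genes. For COL1A1 they were RAB21 (distance 0.73), KDM5B (0.83) and HENMT1 (0.84). For COL5A2 they were STS (0.59), THBS1 (0.60) and RAB11FIP1 (0.73). THBS1, the secreted matrix protein thrombospondin 1, had log2 ratios of 1.31 and 0.19 in A549 libraries 1 and 2, and -0.56 and -0.67 in H1299. The ratios of a line share its shGFP library, and likeness over 4 ratios is a description.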

How the data were processed

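RNA was measured in 6 libraries, made with a TruSeq Stranded mRNA kit per the labels' protocols. TopHat, Bowtie and the hg19 build are named, without versions, per the submitters' processing notes. The authors' deposited values are a signal for each gene in each library. In A549, 100% of values were whole reads divided by a factor per library (2.8, 3.2 and 3.8 for shMETTL3 1, shMETTL3 2 and shGFP; tolerance 0.005 in the value). The rounding of the H1299 values did not allow the same recovery here, so edgeR was run for A549 alone, although the design foresaw it for every fit. For the basis of the factors, the counter and its strand setting, nothing is given in the sources used here. The A549 knockdown columns carry another name with the numbers 1 and 2, and were matched by number.

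limma 3.58.1 (lmFit, eBayes with trend; R 4.3.3) tested log2(value + 1) of genes with a mean of at least 1, with Benjamini-Hochberg adjustment over all genes and 0.05 as the threshold; such fold changes understate those of low genes. The fits were A549, H1299, both lines with line as a term, the interaction, and knockdown library 2 minus 1. edgeR 4.0.16 (quasi-likelihood) tested the recovered A549 reads. Intervals on A549 values are 95% exact Poisson. The code was tested on simulated data.

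The collagen genes, the lists and the rules for naming genes were chosen with earlier results of these data known. All 10 collagen genes were named, with other collagens at a mean of at least 20 or sharing a helix with them. COL9A2, COL24A1 and LUM are named for a limit of the filter on the mean. Examples from the lists were taken from the 3 genes per list and line with that mean and the largest absolute log2 change, and LOX, SERPINH1, P4HA1, PLOD2 and SPARC. The 3 m6A peak lists were not analysed here.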

Additional observations from a re-analysis of the deposited data

Results flagged for a closer look

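COL5A2, the alpha 2 chain of type V collagen, stood on opposite sides of shGFP in the 2 lines: below it in both H1299 shMETTL3 libraries and above it in both A549 shMETTL3 libraries. The values were 18.4 and 13.4 in H1299 shMETTL3, against 20 in shGFP, and 6235 and 2511 in A549 shMETTL3, against 1971 in shGFP. In H1299 library 1 and A549 library 2 the margin was smaller than the SE of the log2 change in that line (0.35 and 0.57). The log2 change in H1299 minus that in A549 was -1.33 (SE 0.70), and limma's interaction term gave an adjusted p of 1, so the difference did not pass the test. Without A549 shMETTL3 library 1 it was -0.68.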

How the results depend on the processing

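No setting tried gave any of the collagen genes an adjusted p under 0.05. The smallest, for COL18A1 in the comparison of library 2 with library 1, were 0.0783 with a minimum mean of 5 and 0.0954 with a pseudocount of 0.1. For the same gene and comparison, limma's adjusted p was 0.1236 after rescaling without RNA45S5, 0.1375 with median centring and 0.2446 without the intensity trend. COL4A5 turned its sign there, to 0.027 with median centring and to 9e-04 after rescaling without RNA45S5, against -0.04.

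Leaving out 1 knockdown library turned several signs. In A549 the log2 changes then ranged between -1.29 and 0.42 for COL4A1, -0.72 and 0.15 for COL4A2, -0.40 and 0.083 for COL18A1, -0.66 and 0.14 for COL6A1, and -0.15 and 0.59 for COL12A1. In H1299 the ranges were -0.15 to 0.25 for COL18A1 and -0.71 to 0.067 for COL6A2. Over both lines they were -0.038 to 0.53 for COL5A2, -0.15 to 0.065 for COL18A1, -0.12 to 0.22 for COL6A1, and -0.12 to 0.20 for COL12A1. For the difference between lines they were -0.031 to 0.45 for COL18A1, -0.19 to 0.58 for COL6A2, and -0.68 to 0.054 for COL12A1. The fibrillar minus basement membrane difference in A549 was 0.066 without library 1 and 0.93 without library 2. With a single library kept, 5 (library 1) to 8 (library 2) of 10 collagen genes stood above shGFP in A549, beside 52.2 and 47.7% of all genes. In H1299 it was 5 (library 1) and 3 (library 2) of 7, beside 61.7 and 43.3%.

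With the replicate block (libraries of the same number paired across lines) 0 collagen genes were called and no sign changed; COL1A1 over both lines had 0.84 and an adjusted p of 0.760. The numbers are not stated to mark a shared batch. Across 10099 genes, the difference of library 2 minus library 1 correlated between the lines with a Pearson r of 0.37.

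edgeR was not run for H1299 or for fits of both lines, and peaks in collagen genes were not run, since gene models of hg19 were not used here. COL6A2 in A549 rests on 60 to 121 reads, and COL4A1, COL4A2 and COL5A1 in H1299 are too low for any comparison.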
